A study of Mus musculus with 7 samples.

Results

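The 5 genes described here encode the neurotrophins BDNF (Bdnf) and neurotrophin 3 (Ntf3), their receptor tyrosine kinases TrkB (Ntrk2) and TrkC (Ntrk3), and the p75 neurotrophin receptor (Ngfr). They were chosen by gene name, and all 5 were found among the 49164 genes with counts in the table of 7 libraries. The libraries are bulk RNA-seq of 3 female and 4 male Trap-Ai9 mice aged 2 months, each from the medial amygdala, a part of the limbic system known for processing social odours. In this line a tamoxifen-inducible recombinase made from the Fos locus marks active cells with a red reporter for good. The dissected area, seen under fluorescence, is called DIMPLE by the submitters, who do not explain the term, and each piece pooled both hemispheres, with tissue outside DIMPLE included. Females received tamoxifen at 6 weeks and males at postnatal day 24 per the sample labels, whereas the series' design text names day 24 alone, so sex and the age at tamoxifen cannot be told apart. The share of the piece taken up by DIMPLE was 25, 20 and 20% in female replicates 1 to 3, and 40, 18, 32 and 29% in male replicates 1 to 4.

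Neurotrophins are secreted, dimeric growth factors that support neuronal survival, dendrite growth and synaptic plasticity. BDNF binds TrkB and neurotrophin 3 binds TrkC, which signal through the Ras and MAP kinase, PI3 kinase and phospholipase C gamma routes, and p75 binds all neurotrophins and, with sortilin family members, their uncleaved precursors. In the forebrain Bdnf is made mainly by glutamatergic neurons and is induced by activity, neurons carry full-length TrkB, and astrocytes carry mostly a truncated TrkB without the kinase.

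Bdnf is transcribed from several alternative promoters that are spliced to a shared coding exon, and the deposited counts sum all of them. RefSeq promoter windows (GRCm38.p6, 250 bases before to 50 after a start) were found for 4 of the 5 genes, 11 windows in all, of which 7 belonged to Bdnf and 2 to Ntf3. Both strands were searched for the cAMP response element TGACGTCA, its variant TCACGTCA, the E-box CACGTG and the Egr site GCGGGGGCG, and no match overlapped another. Among the 11 windows 2 held a match, and these are shown, so that the matched letters can be seen in their context in both neurotrophin genes. The Bdnf window (chr2:109692186-109692485, plus strand) held the cAMP response element variant at position -38 from the start, a string present in 0.441% of 32851 windows of the same length. The Ntf3 window (chr6:126166695-126166994, minus strand) held an E-box at -231, a string present in 7.15% of the windows. The cAMP response element itself was in 1.79% and the Egr site in 2.91% of the windows, and neither was in the 11. Capitals mark the matches, which are descriptions of letters and not measured binding sites.
Bdnf promoter window: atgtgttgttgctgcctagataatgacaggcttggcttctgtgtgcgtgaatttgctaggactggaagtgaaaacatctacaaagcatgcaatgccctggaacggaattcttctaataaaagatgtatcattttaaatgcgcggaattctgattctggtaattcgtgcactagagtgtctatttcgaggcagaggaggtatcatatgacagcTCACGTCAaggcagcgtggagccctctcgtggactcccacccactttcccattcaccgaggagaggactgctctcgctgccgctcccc
Ntf3 promoter window: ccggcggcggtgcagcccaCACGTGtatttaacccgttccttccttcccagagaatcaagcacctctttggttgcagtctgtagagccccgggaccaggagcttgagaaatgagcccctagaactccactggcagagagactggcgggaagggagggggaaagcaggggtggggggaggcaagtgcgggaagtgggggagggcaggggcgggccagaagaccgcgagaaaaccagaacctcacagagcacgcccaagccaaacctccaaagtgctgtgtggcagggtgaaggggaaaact

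Total counts ranged from 29049604 to 46494588 per library, and levels are given as CPM, counts scaled to a common library size after normalization by the trimmed mean of M-values (TMM). All 8 medial amygdala markers were detected in every library, and their summed level was 325 to 506 CPM in females and 280 to 431 CPM in males. Estimates were lower in males for 7 of the 8 and higher for Lhx9, and none passed the test. Male replicate 3 stood apart in choroid plexus markers: Ttr, the transthyretin gene, was 13618 CPM there and 8.56 to 249 CPM in the other libraries. Its summed CPM of 7 myelin genes, 9040, was also above the 1502 to 3900 of the others. By edgeR's quasi-likelihood test with Benjamini-Hochberg adjustment at 0.05, 5 of 20420 genes tested (0.0245%) differed between the sexes, and 0% had a slope on percent DIMPLE. None of the 5 neurotrophin and receptor genes passed either test. Ngfr reached the level asked by the low-count filter in 3 male libraries and 1 female library, so it entered the tests mainly through the group where it was high and is left out of the counts that follow. Of the other 4 genes, which reached that level in all 7 libraries, Bdnf had an unadjusted p under 0.05 for sex, against 4.71% of all genes tested, and was higher in males, which held for 2.68%. For the slope none of the 4 passed at that level, against 4.54%. The male and female libraries overlapped for all 4, whereas they did not overlap for 5.32% of genes tested, and every male was above every female for 2.54%. Estimates were above 0 for 3 of the 4 for sex, against 52.3% of genes, and for 3 of the 4 for the slope, against 51.6%. Without male replicate 3 the estimated log2 difference of males from females was 1.74 ± 0.51 (SE) for Bdnf, 1.18 ± 0.46 for Ntf3, -0.23 ± 0.23 for Ntrk2, 0.095 ± 0.23 for Ntrk3 and 1.02 ± 0.60 for Ngfr.

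**Figure D1:**
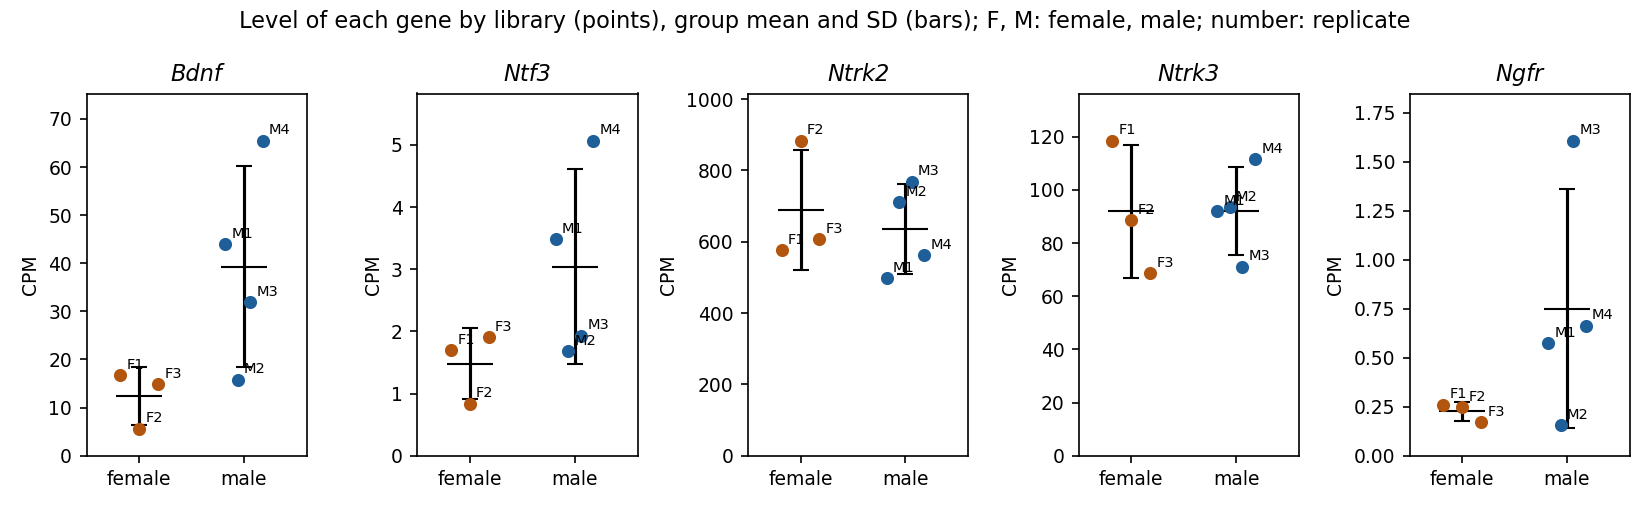
CPM of the 5 genes (vertical axes, each from 0) in the 3 female (F) and 4 male (M) libraries, numbered by replicate, with the group mean and SD as bars. Bdnf, Ntf3 and Ngfr have male points above all females, while Ntrk2 and Ntrk3 are spread alike in both sexes.

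Bdnf was the member with the largest ratio of the highest to the lowest library. Its gene (ENSMUSG00000048482, chromosome 2, 109505045 to 109557352, plus strand, GRCm39) overlaps a single antisense gene that held 14 counts over all libraries, against 7613 for Bdnf. Bdnf stood at 16.8, 5.60 and 14.8 CPM in female replicates 1 to 3, and at 44.0, 15.8, 32.0 and 65.5 CPM in male replicates 1 to 4. Male replicates 1, 3 and 4 lay above every female, and male replicate 2, the male with the smallest share of DIMPLE, lay between the females. The means were 12.4 ± 5.96 CPM (SD, n = 3) in females and 39.3 ± 20.9 CPM (SD, n = 4) in males. The highest library held 11.7 times the lowest, against 10.2 times for Ngfr, which had far fewer counts. The log2 fold change, male over female, was 1.66 ± 0.49 (SE), with an unadjusted p of 0.00713 and an adjusted p of 0.714 over all genes by edgeR's quasi-likelihood test. In bulk tissue, fewer cells that make an RNA and less RNA per cell cannot be told apart.

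The call on Bdnf at 0.05 depended on the tool, and it also differed between the authors' DESeq2 run and the DESeq2 run made here. The authors' deposited table gives Bdnf a log2 fold change of -1.67 (female over male) with a DESeq2 adjusted p of 0.0652. Of the 28808 genes with an adjusted p there, 0.496% were under 0.1, or 0.364% if only those higher in males are counted. Under 0.05, which Bdnf missed there, were again 0.364% of those 28808 genes, in either direction. DESeq2 on the same counts gave 1.67 ± 0.46 (SE) with an adjusted p of 0.0480, a call made for 0.504% of the 22032 genes it adjusted. What moved the adjusted p between the DESeq2 runs, whose estimates were nearly equal, was not tested. With limma-voom the adjusted p was 0.816. With percent DIMPLE in the edgeR model the Bdnf log2 fold change was 1.09 ± 0.52 (adjusted p = 1.00).

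The column names of the table divide the males into pairs that the labels do not explain, mv (male replicates 1 and 2) and mb (male replicates 3 and 4). Against all females, Bdnf had a log2 fold change of 1.25 ± 0.49 (SE) in the mv males and 1.98 ± 0.46 in the mb males, with edgeR adjusted p-values of 0.989 and 0.218. The estimate was positive with either pair, and the difference between the pairs was not tested.

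**Figure D2:**
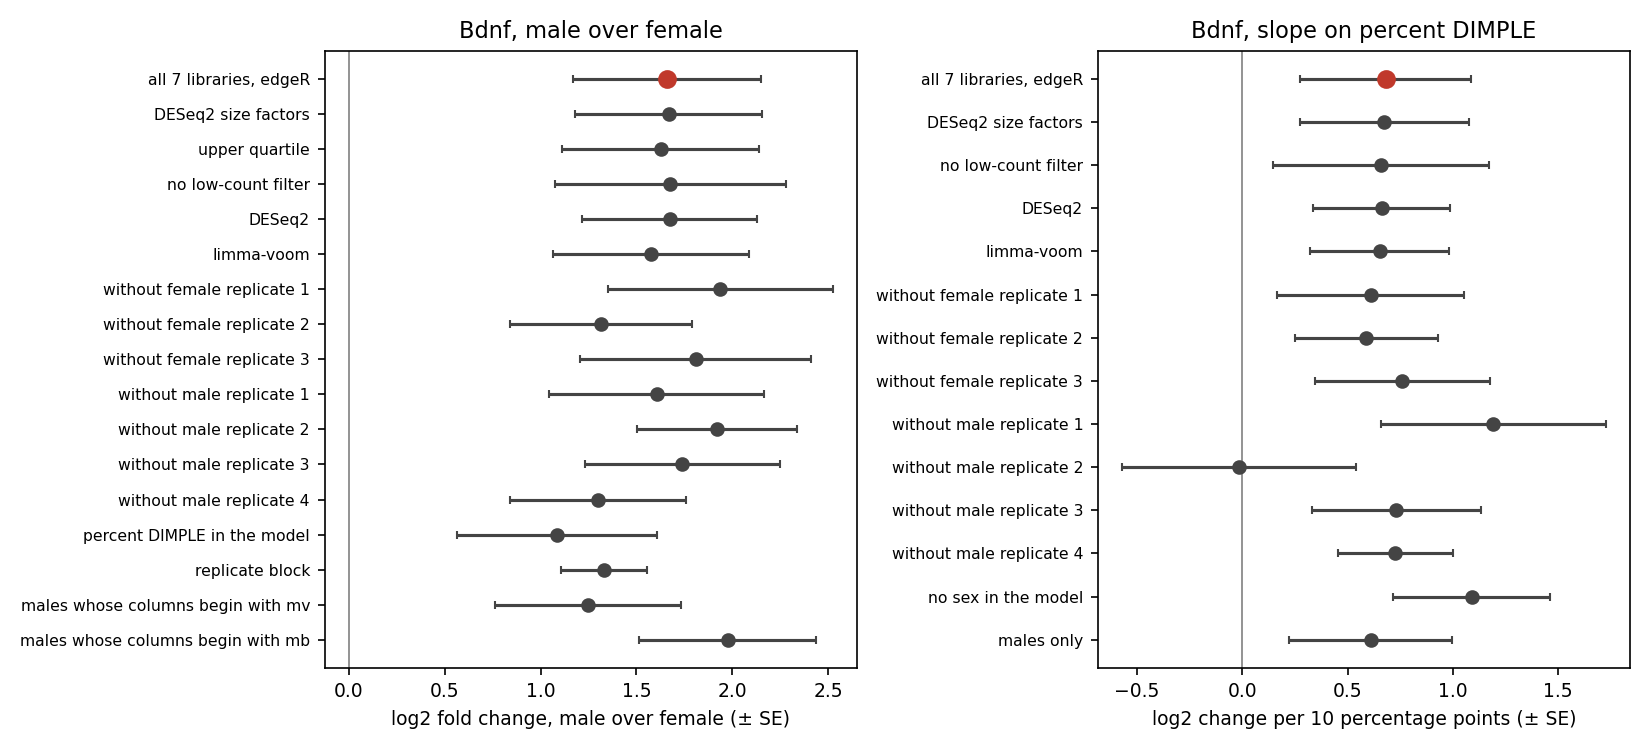
Bdnf estimates (horizontal axes, log2 units, bars ± SE) with all 7 libraries in edgeR (red) and under each alternative, for males over females (left) and for the slope per 10 percentage points of DIMPLE (right). The sex estimate stays between 1.09 and 1.98, and the slope drops to -0.016 without male replicate 2.

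Ntf3, which encodes neurotrophin 3, was expressed at a low level (ENSMUSG00000049107, chromosome 6, 126078375 to 126143873, minus strand, GRCm39). It stood at 1.70, 0.836 and 1.91 CPM in female replicates 1 to 3, and at 3.48, 1.68, 1.93 and 5.07 CPM in male replicates 1 to 4, from 27 to 206 counts per library. Male replicates 1 and 4 were the highest, as they were for Bdnf, and female replicate 2 was the lowest for both genes. The means were 1.48 ± 0.568 CPM (SD, n = 3) in females and 3.04 ± 1.57 CPM (SD, n = 4) in males. The log2 fold change, male over female, was 1.03 ± 0.47 (SE; unadjusted p = 0.0521, adjusted p = 1.00 by edgeR's quasi-likelihood test). It was 0.66 ± 0.45 without male replicate 4, and 0.68 ± 0.55 once percent DIMPLE entered the fit.

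Pallial glutamatergic neuron markers were higher in males, as were the mean levels of Bdnf and Ntf3. The summed CPM of the 9 marker genes was 443 to 583 in females and 847 to 1864 in males. Estimates were higher in males for 8 of the 9. Among the females the sum did not follow Bdnf and Ntf3. It was highest, at 583, in female replicate 2, where both neurotrophin genes were lowest. Slc17a7, the vesicular glutamate transporter gene of cortical-type neurons, stood at 48.8, 55.9 and 88.7 CPM in female replicates 1 to 3, and at 405, 145, 442 and 793 CPM in male replicates 1 to 4. As with Bdnf, male replicate 4 was the highest and male replicate 2 the lowest male, but here every male lay above every female. Among the medial amygdala markers Lhx9, a LIM homeobox gene, stood at 3.04, 1.42 and 2.10 CPM in female replicates 1 to 3, and at 22.7, 5.07, 20.3 and 29.8 CPM in male replicates 1 to 4. Every male lay above every female, and the order of the males was that of Bdnf. The part of the cells that carry these markers, or of where the piece was cut, in the Bdnf and Ntf3 levels was not tested.

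The genes whose profile over the 7 libraries was nearest to that of Bdnf were Nrn1, Crym and Fibin. Nearness was the root mean square difference in log2 CPM after each gene was centred on its own mean, among 12029 genes at a mean of at least 5 CPM. The difference from Bdnf was 0.24 log2 units for Nrn1, which encodes the activity-regulated growth protein neuritin, 0.24 for Crym, a thyroid hormone binding protein gene, and 0.29 for Fibin. The median gene differed from Bdnf by 1.14 units, and the spread of Bdnf itself was 1.09. Nrn1 stood at 23.1, 11.1 and 28.4 CPM in female replicates 1 to 3, and at 106, 30.3, 71.5 and 140 CPM in male replicates 1 to 4. Its order among the males was that of Bdnf, and its males did not overlap its females. Nearest to Ntf3 were Chst9 (0.18), Sertm1 (0.21) and Klf10 (0.23), against a median of 0.81. All these profiles share the same 7 libraries and their tissue composition, and the distances are descriptions without a test.

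**Figure D3:**
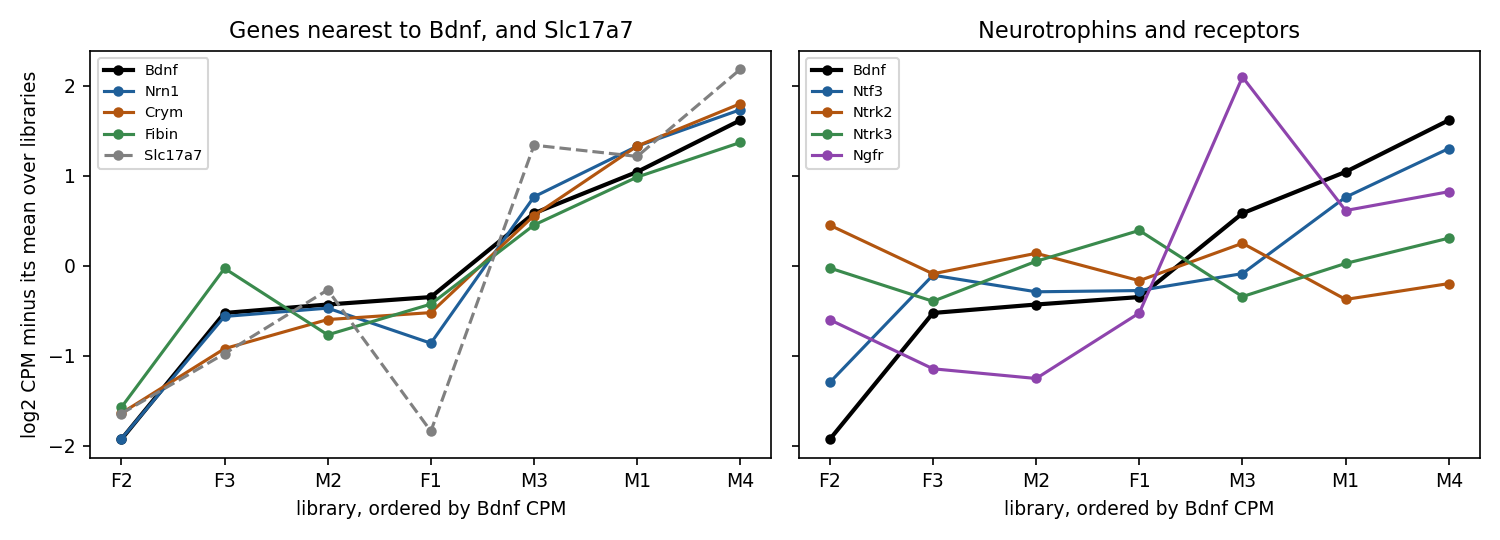
Log2 CPM minus each gene's mean over the libraries (vertical axis), with libraries ordered by Bdnf CPM (horizontal axis; F female, M male, number the replicate). On the left Nrn1, Crym and Fibin run close to Bdnf while Slc17a7 is lower in female replicate 1, and on the right Ntf3 runs near Bdnf, Ngfr peaks in male replicate 3, and Ntrk2 and Ntrk3 stay near 0.

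The Trk receptor genes varied less among the libraries than Bdnf, Ntf3 and Ngfr did. Ntrk2 (ENSMUSG00000055254, chromosome 13, 58954383 to 59281784, plus strand, GRCm39) stood at 576, 883 and 607 CPM in female replicates 1 to 3, and at 498, 711, 768 and 563 CPM in male replicates 1 to 4. Female replicate 2 was the highest and male replicate 1 the lowest, and the sexes were interleaved. The means were 689 ± 169 CPM (SD, n = 3) in females and 635 ± 126 CPM (SD, n = 4) in males, with a log2 fold change, male over female, of -0.12 ± 0.22 (SE; edgeR adjusted p = 1.00). The sign of that estimate changed without female replicate 2 (0.10 ± 0.22) and once percent DIMPLE entered the fit (0.061 ± 0.26).

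Counts per gene do not separate the full-length from the truncated TrkB. Astrocyte markers, summed over 10 genes, ranged from 4059 to 6256 CPM in females and from 4705 to 5816 CPM in males, with the highest value in female replicate 2, where Ntrk2 was also highest. The part of astrocytes in the Ntrk2 level was not tested. The genes nearest to Ntrk2 over the libraries were the potassium channel gene Kcna6 (0.042 log2 units), Mboat2 (0.048) and Tfcp2 (0.052), against a median of 0.31 and a spread of Ntrk2 itself of 0.27.

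Ntrk3 (ENSMUSG00000059146, chromosome 7, 77825707 to 78387760, minus strand, GRCm39) stood at 119, 88.7 and 68.7 CPM in female replicates 1 to 3, and at 91.9, 93.5, 71.2 and 112 CPM in male replicates 1 to 4. The highest and the lowest library were both female, so that the males lay inside the female range. The means were 92.0 ± 25.1 CPM (SD, n = 3) and 92.1 ± 16.6 CPM (SD, n = 4), and the log2 fold change was 0.0014 ± 0.22 (SE; edgeR adjusted p = 1.00), an estimate whose sign changed under 9 of 17 alternatives. The 17 include the threshold of 0.1, which reuses the main estimate and could not change its sign. The SD of log2 CPM over the 7 libraries was 0.29 for Ntrk2, 0.30 for Ntrk3 and 1.18 for Bdnf. The median was 0.28 over genes at 5 CPM or more. Nearest to Ntrk3 were the dynein adaptor gene Bicd1 (0.082), the sodium leak channel subunit gene Unc80 (0.083) and Setbp1 (0.088), against a median of 0.38. Genes that overlap these loci held 22 to 495 counts each at Ntrk2 and 8 to 832 at Ntrk3 over all libraries, against 182904 and 25499 counts for the receptors, and whether counting used the strand is not given in the sources used here.

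Ngfr, the p75 receptor gene, was near the limit of detection (ENSMUSG00000000120, chromosome 11, 95459644 to 95478561, minus strand, GRCm39). It held 12, 8 and 8 counts in female replicates 1 to 3, and 16, 6, 74 and 27 counts in male replicates 1 to 4. These are 0.261, 0.248 and 0.170 CPM in females and 0.574, 0.157, 1.61 and 0.664 CPM in males. Male replicates 1, 3 and 4 lay above the females, and male replicate 2 was the lowest library of all. Ngfr reached the level asked by the low-count filter in 3 male libraries and 1 female library. It was thus tested mainly because males were high, so its p-values for sex are not support for a difference. The log2 fold change was 1.74 ± 0.69 (SE; unadjusted p = 0.0316, adjusted p = 0.962 by edgeR's quasi-likelihood test), and 1.02 ± 0.60 (adjusted p = 0.951) without male replicate 3. It was 0.64 ± 0.73 in the mv males and 2.33 ± 0.56 in the mb males against all females (adjusted p = 0.989 and 0.230).

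Cholinergic markers were low. In the forebrain p75 is known above all from basal forebrain cholinergic neurons, and 5 cholinergic markers summed to 2.95 to 4.55 CPM in females and 2.12 to 5.04 CPM in males. Chat, which encodes the acetylcholine-synthesizing enzyme, was at most 0.261 CPM in any library. Ngfr was highest in male replicate 3, where the 5 choroid plexus markers summed to 14634 CPM against 26.9 to 296 CPM in the other libraries. The summed CPM of 9 mural and fibroblast markers was 44.1 to 77.4 in females and 54.4 to 104 in males, and that replicate, at 82.1, was inside the male range. The part of these cells in the Ngfr level was not tested. Among the genes nearest to Ngfr were N4bp3 (0.43 log2 units) and the monoamine transporter gene Slc29a4 (0.45), against a median of 1.04, and both were highest in male replicate 3.

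The members can be set against each other only per length of transcript. On the scale of CPM per kilobase of annotated exon (GENCODE M21 exon lengths from 1714 bases for Ntf3 to 30170 for Ntrk3), Ntrk2 was the highest level in all 7 libraries, at 35.7 ± 8.76 in females and 32.9 ± 6.51 in males (SD, n = 3 and 4). Ntf3 was the fourth and Ngfr the lowest in all 7. Bdnf and Ntrk3 changed places: per kilobase, Bdnf was above Ntrk3 in 4 of 7 libraries, male replicates 1, 3 and 4 and female replicate 3. In female replicate 3 the values were close, 2.39 for Bdnf and 2.28 for Ntrk3, and in male replicate 2 they were 2.55 and 3.10. Lengths that merge all isoforms understate the level of genes with long alternative ends, such as the Trk receptors.

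Slopes on the share of DIMPLE are given per 10 percentage points and come from a fit that also holds sex. The log2 slopes were 0.68 ± 0.40 (SE) for Bdnf, 0.40 ± 0.40 for Ntf3, -0.22 ± 0.17 for Ntrk2, 0.031 ± 0.19 for Ntrk3 and 1.03 ± 0.63 for Ngfr. Their edgeR adjusted p-values were 0.897 for each but Ntrk3, which had 0.982. Within the males Bdnf was 15.8 CPM at 18% DIMPLE, 65.5 at 29%, 32.0 at 32% and 44.0 at 40%, so that the lowest value came with the smallest share but the highest did not come with the largest. In females, the piece with 25% DIMPLE held 16.8 CPM of Bdnf, and those with 20% held 5.60 and 14.8 CPM.

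The slopes of Bdnf, Ntf3 and Ngfr were no longer positive without male replicate 2. Without it the slope was -0.016 ± 0.55 for Bdnf, -0.13 ± 0.61 for Ntf3 and -0.40 ± 0.83 for Ngfr. The Ntrk3 slope was 0.12 ± 0.34 without that replicate, and below 0 without female replicate 1 (-0.052 ± 0.18), without female replicate 3 (-0.010 ± 0.17) and in males alone (-0.051 ± 0.17). Without male replicate 3 it was 0.73 ± 0.40 for Bdnf and 0.76 ± 0.45 for Ngfr. Without male replicate 1 the Bdnf slope was 1.19 ± 0.53 and the Ngfr slope 2.09 ± 0.58 (edgeR adjusted p = 1.00 for both), and among males alone the Bdnf slope was 0.61 ± 0.39. With sex left out of the model the Bdnf slope was 1.09 ± 0.37 (edgeR adjusted p = 0.436).

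**Figure D4:**
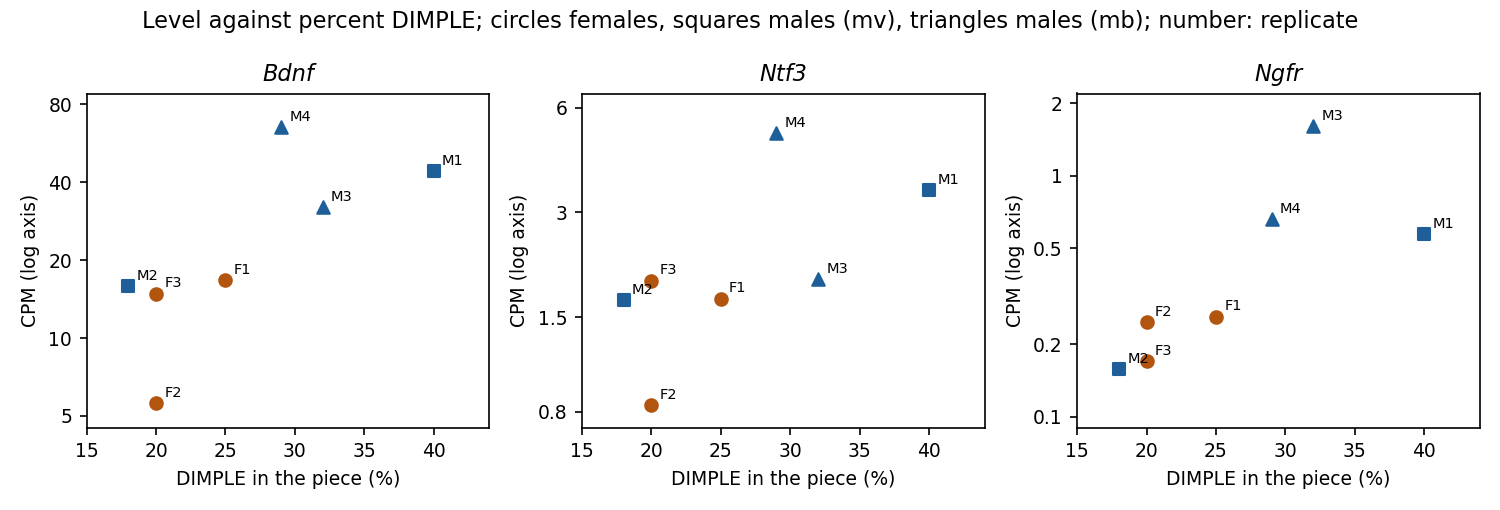
CPM of Bdnf, Ntf3 and Ngfr (vertical axes, log scale) against the percent DIMPLE of the piece (horizontal axes), with circles for females, squares for mv males and triangles for mb males. Male replicate 2, at 18% DIMPLE, lies within the female range of Bdnf and Ntf3 and just under it for Ngfr.

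The rest of the pathway was described with 6 lists of 97 genes, of which 94 were tested. None rose or fell at the adjusted threshold, and the median log2 fold change of the 94 was 0.020, beside 0.015 for all genes tested. At an unadjusted p under 0.05, 8 of the 94 differed, 3 higher and 5 lower in males, against 4.71% of all genes tested. The groups did not overlap for 4 of the 94, among them Nrn1, Rtn4r and Pcsk1, against 5.32%. No pathway gene passed for the slope, where 4 of the 94 had an unadjusted p under 0.05, against 4.54%. The median slope of the 94 was -0.056, beside 0.0097 for all genes tested.

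Ntf5, the gene of neurotrophin 4, was 0.130 to 0.446 CPM in females and 0.131 to 0.369 CPM in male replicates 1, 2 and 4, but 2.97 CPM in male replicate 3, the library with choroid plexus markers.

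Among the sortilin family receptors, which bind proneurotrophins, Sorcs3 was 69.2 ± 14.3 CPM in females and 45.7 ± 10.5 CPM in males (SD, n = 3 and 4). Its log2 fold change was -0.60 ± 0.22 (SE; unadjusted p = 0.0238, edgeR adjusted p = 0.889), and its slope on DIMPLE was -0.29 ± 0.17. Sorcs2 had a slope of -0.38 ± 0.22. Of the 8 genes tested in this list, 4 had higher and 4 lower estimates in males, with a median of 0.087.

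Proneurotrophins are cut by furin and prohormone convertases and released from dense core vesicles. Pcsk1, a convertase gene, was 41.1 ± 10.8 CPM in females and 28.1 ± 4.81 CPM in males, without overlap (log2 fold change -0.55 ± 0.21, unadjusted p = 0.0280, edgeR adjusted p = 0.928). Pcsk2 was 70.3 ± 3.97 and 92.6 ± 20.7 CPM, and Furin 25.4 ± 3.63 and 34.1 ± 13.2 CPM, with 53.8 CPM in male replicate 3. Scg3, a granule protein gene, and Cadps2, a vesicle priming gene, had the lowest p for the slope in this list, with slopes of -0.15 ± 0.12 and -0.13 ± 0.21. Of the 13 genes tested here, 6 had higher and 7 lower estimates in males, with a median of -0.056, and the matrix protease genes Mmp3 and Mmp7 were not tested, at 3 and 1 counts in all.

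All 30 adaptor and kinase genes downstream of the Trk receptors were tested, of which 16 had higher and 14 lower estimates in males. Their median log2 fold change was 0.019. The adaptor genes Frs3 and Shc2, which link Trk receptors to Ras, were 41.0 ± 4.54 and 39.3 ± 4.86 CPM in females and 30.7 ± 3.94 and 29.8 ± 6.01 CPM in males. The slopes of Frs3 and Shc2 on DIMPLE were -0.19 ± 0.12 and -0.31 ± 0.13 per 10 percentage points.

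Of 10 genes of p75 coreceptors and partners, 5 had higher and 5 lower estimates in males, with a median of -0.018. Rtn4r, the Nogo receptor gene, stood at 5.87, 5.32 and 6.68 CPM in female replicates 1 to 3, and at 11.3, 7.32, 13.8 and 24.6 CPM in male replicates 1 to 4. As for Bdnf, male replicate 4 was the highest and male replicate 2 the lowest male. Its log2 fold change was 1.259 ± 0.37 (SE; unadjusted p = 0.00705, edgeR adjusted p = 0.714). Against all females it was 0.63 ± 0.29 in the mv males and 1.69 ± 0.29 in the mb males (edgeR adjusted p = 0.989 and 0.0953). Lingo1, its coreceptor gene, was 79.3 ± 19.9 CPM in females and 104 ± 34.6 CPM in males, and Zfp110 was 14.7 ± 1.31 and 18.1 ± 5.09 CPM. Maged1, which encodes a cytoplasmic partner of p75, and Arhgdia had slopes of -0.30 ± 0.13 and -0.20 ± 0.11.

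Among 22 genes known to respond to BDNF or to activity, 15 had higher and 7 lower estimates in males. Their median log2 fold change was 0.13. Nrn1 had a log2 fold change of 2.05 ± 0.50 (SE; unadjusted p = 0.00209, edgeR adjusted p = 0.539), and DESeq2 called it (adjusted p = 0.00242). The somatostatin gene Sst was 529 ± 180 CPM in females and 308 ± 85.7 CPM in males, and the granin-like peptide gene Vgf was 418 ± 112 and 272 ± 77.6 CPM, with unadjusted p-values of 0.0241 and 0.0384 and edgeR adjusted p-values of 0.896 and 1.00. Markers of GABAergic neurons, summed over 7 genes, were 1155 to 2049 CPM in females and 906 to 1619 CPM in males, and all 7 had lower estimates in males. In female replicate 2, where that sum was highest, Sst was at its lowest among the females, 321 CPM, and Vgf at its highest, 541 CPM. The part of these neurons in the Sst and Vgf levels was not tested. Cort, the cortistatin gene, had a slope of 0.86 ± 0.30 per 10 percentage points (unadjusted p = 0.0192, edgeR adjusted p = 0.897), with its highest value, 9.44 CPM, in male replicate 1, which held 40% DIMPLE. Crem, a cAMP-responsive factor gene, had a slope of 0.34 ± 0.14, and was 32.0 CPM in male replicate 1 against 18.3 to 23.2 CPM elsewhere.

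None of the 12 transcriptional regulators of Bdnf had an unadjusted p under 0.05 in either comparison by edgeR's quasi-likelihood test. Of all genes tested, 4.71% did for sex and 4.54% for the slope, and with 12 genes none is near those shares. The median log2 fold change of the 12 was 0.014. Mef2c was 119 ± 9.45 CPM in females and 171 ± 75.6 CPM in males, of which 283 CPM was in male replicate 4, the library with the most Bdnf. Bhlhe40, a repressor gene, was 81.2 ± 8.04 and 67.6 ± 11.4 CPM, with a slope of -0.26 ± 0.12. Mef2d was 132 ± 40.6 and 106 ± 28.1 CPM, with a slope of -0.36 ± 0.20.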

How the data were processed

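The authors deposited 1 table, which holds raw counts per gene and library with no normalization, per the file headers. It also holds a signal, size-factor scaled counts from DESeq2, which was not used, and log2 fold changes that the authors computed for female over male, with p-values and adjusted p-values, per the file headers. The build was GRCm39 and the tools were TopHat2 2.2.1, cutadapt, DESeq2 1.26.0 and HTSeq 2.0.1, per the submitters' processing notes, with no strand setting given in the sources used here. Columns were assigned by the column letters in the sample descriptions.

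Raw counts were filtered with filterByExpr (at least 10 counts in enough libraries and 15 in all), normalized by the trimmed mean of M-values (TMM) and fitted with edgeR 4.0.16 (robust quasi-likelihood) in R 4.3.3, tested on simulated data. SE is the log2 change divided by the square root of F. Alternatives used DESeq2 1.42.0, limma 3.58.1 (voom), other scalings, no filter, percent DIMPLE as a covariate, a replicate block, a threshold of 0.1, and each library left out. Comparisons by column name and the slope in males alone were added after seeing the data. The members and lists were chosen with earlier results of these data known. From each list the text names the 3 genes of lowest p for sex and the 2 of lowest p for the slope. Also named are Ntf5, Slc17a7, Aqp4 and Chat, and the 3 nearest genes of each member. A few genes chosen by these rules are left out here. Aqp4, an astrocyte gene, was 177 ± 64.2 CPM in females and 204 ± 27.0 CPM in males (SD, n = 3 and 4). Other genes named, such as Ttr, Lhx9, Mmp3 and Mmp7, were chosen after their values were seen. P-values measure the spread between 7 animals. The SD and SE values also hold the spread between libraries and not counting error alone.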

Additional observations from a re-analysis of the deposited data

How the results depend on the processing

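No alternative in edgeR or limma-voom called any of the 5 genes, while DESeq2 called Bdnf for sex (log2 fold change 1.67). The estimates for sex stayed positive under all 17 alternatives for Bdnf, Ntf3 and Ngfr. The threshold of 0.1 among them reuses the main estimate, and the others refit all or part of the same 7 libraries. Ngfr entered the tests mainly through the males, where it was high, so its sign is not support for a difference. Leaving out each library in turn gave 1.30 to 1.94 for Bdnf, 0.66 to 1.25 for Ntf3 and 1.02 to 2.08 for Ngfr. For Ntrk2 it gave -0.23 to 0.10, with 0.061 when percent DIMPLE was in the model. For Ntrk3 it gave -0.17 to 0.22, with -0.0039 under upper quartile scaling, -0.022 with percent DIMPLE in the model, and -0.0064 and -0.0041 in the mv and mb males. The slopes when each library was left out were -0.016 to 1.19 for Bdnf, -0.13 to 0.64 for Ntf3, -0.052 to 0.12 for Ntrk3 (-0.051 in males alone) and -0.40 to 2.09 for Ngfr, and the Cadps2 slope -0.56 to 0.11. For sex, Lingo1 was -0.079 in the mv males and Aqp4 -0.011 to 0.52 when each library was left out. The causes were not tested.

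Genes called for sex, 5 in the main test, numbered 12 without a low-count filter, 111 with DESeq2, 48 against the mb males and 4 to 26 when each library was left out, the 26 without male replicate 2. For the slope, 15 were called without a low-count filter and 0 otherwise. With the replicate number as a block 27 genes were called for sex, Bdnf was 1.33 ± 0.22 (SE; edgeR adjusted p = 0.0522) and Ntrk3 -0.080. Same-numbered males and females had deviations correlated at 0.307, 0.169 and 0.0318, and 3 of 6 libraries correlated best with their own number, so the numbers were not taken to pair the animals. Of the pathway genes 1, Nrn1, was called with the block and 1, again Nrn1, with DESeq2.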
